A study of Homo sapiens with 6 samples.

Results

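The MYC, MAX and MXD network is a set of basic helix-loop-helix leucine zipper transcription factors, followed here in RNA of PC-3 cells, an established line of human prostate cancer, with and without depletion of CdGAP, a GTPase-activating protein for Rac1 and Cdc42. The 10 members were taken by gene symbol (MYC, MYCN, MYCL, MAX, MXD1, MXD3, MXD4, MXI1, MNT and MLX) from the 64253 genes of the count tables. Of these 10 genes, 9 held reads and passed edgeR's filter on low counts, as did 16439 genes in all. MYCN held no read in any library. RNA-seq had been carried out on 3 samples of CdGAP-depleted PC-3 cells, which express an shRNA to CdGAP (shCdGAP), and on 3 control samples of the same line that received a control shRNA (shCon), each library from total RNA of cultured cells. According to the methods, the CdGAP-depleted cells were made with a lentiviral vector under puromycin and plated as single cells to give clones. The sources used here do not say whether the control cells went through the same step or which clone was sequenced, so the depletion and a difference between clones cannot be told apart.

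MYC and its relatives MYCN and MYCL bind DNA as dimers with MAX at sequences called E-boxes, of which CACGTG is the canonical form, and recruit coactivators that open chromatin and release paused RNA polymerase. The MXD proteins (MXD1, MXD3, MXD4 and MXI1, also called MXD2) and MNT compete for MAX and occupy the same sequences with the SIN3 corepressor complex. MLX pairs with MXD1, MXD4 and MNT and also with the glucose-responsive factors MLXIP (MondoA) and MLXIPL (ChREBP), which links the network to nutrient sensing. MYC drives ribosome production, nucleotide synthesis and cell growth and is often amplified or highly expressed in prostate cancer.

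Several network genes carry the network's own binding motif at their promoters, and the sequences below show where. RefSeq promoters (GRCh38.p14, 250 bases before to 50 after the start site) were found for 9 of the 10 members, MYC being the exception. CACGTG, which reads the same on both strands, was present in the promoters of 3 members, MXD4, MNT and MLX. It was in 7.26% of all 35116 promoters listed and, counted by gene, in 12.2% of tested genes with a listed promoter. The 250 bases before the start site are given 5′ to 3′ on the gene's strand for these 3 genes and for MXD1, the member with the greatest fall in RNA, which had no CACGTG in its window. Capitals mark CACGTG. The MXD4 stretch is chr4:2262110-2262359 on the minus strand, with the motif starting at -238 from the start site. For MNT it is chr17:2401061-2401310 on the minus strand, with the motif at -193. The MLX stretch, chr17:42566850-42567099 on the plus strand, holds the motif at -50. For MXD1 the stretch is chr2:69914859-69915108 on the plus strand, inside the span of the gene model used for counting, which starts further upstream.
MXD4: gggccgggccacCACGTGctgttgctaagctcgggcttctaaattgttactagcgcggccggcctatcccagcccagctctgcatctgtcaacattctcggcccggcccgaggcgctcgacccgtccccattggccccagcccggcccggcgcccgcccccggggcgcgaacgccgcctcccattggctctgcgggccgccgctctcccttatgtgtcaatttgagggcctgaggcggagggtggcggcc
MNT: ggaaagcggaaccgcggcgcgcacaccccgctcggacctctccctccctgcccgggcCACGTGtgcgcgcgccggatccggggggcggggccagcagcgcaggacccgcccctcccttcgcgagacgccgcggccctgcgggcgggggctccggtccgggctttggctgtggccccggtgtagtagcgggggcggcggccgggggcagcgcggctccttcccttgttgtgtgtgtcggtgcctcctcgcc
MLX: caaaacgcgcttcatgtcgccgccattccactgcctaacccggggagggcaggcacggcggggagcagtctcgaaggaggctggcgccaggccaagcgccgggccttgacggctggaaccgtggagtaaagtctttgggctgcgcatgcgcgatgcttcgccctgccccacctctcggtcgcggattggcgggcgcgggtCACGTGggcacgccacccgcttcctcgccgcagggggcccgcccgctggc
MXD1: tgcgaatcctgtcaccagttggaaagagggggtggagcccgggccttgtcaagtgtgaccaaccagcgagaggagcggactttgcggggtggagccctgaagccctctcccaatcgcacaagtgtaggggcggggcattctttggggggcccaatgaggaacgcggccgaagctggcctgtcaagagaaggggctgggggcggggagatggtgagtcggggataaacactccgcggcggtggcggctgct
A match is a description of the letters in this window and not a measured binding site.

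The libraries were deep and similar in size, with 34011175 to 43154039 counted reads in the shCdGAP group and 33182796 to 42786971 in the shCon group. Values below are in CPM, the reads of a gene scaled to a common library size after TMM normalization, or CPM per kilobase of merged exon (RPKM) where levels of different genes are compared. A count of 3 reads, the limit that a count of 0 allows, corresponded to 0.0689 to 0.0908 CPM. ARHGAP31, which encodes CdGAP and lies on chromosome 3 from 119294373 to 119420714, was at 26.4, 27.1 and 26.9 CPM in CdGAP-depleted and at 58.9, 60.6 and 58.2 CPM in control libraries. Its log2 fold change was -1.14 (SE 0.0409, adjusted p = 8.75e-08, from the quasi-likelihood test of edgeR), which left 45.3% of the shCon level, and it was -1.16 without shCdGAP replicate 2. Fold changes are shCdGAP over shCon throughout, and a gene is said to have risen or fallen at an adjusted p under 0.01 over all 16439 genes. At this threshold 46.2% of all genes changed, 24.1% higher and 22.0% lower, and 12.8% passed with an absolute log2 fold change above 1. The shCdGAP replicate 2 library stood apart, with a median absolute log2 distance of 0.149 to its group mates against 0.0873 and 0.102 for the other shCdGAP libraries and 0.0526 to 0.0610 for the shCon libraries. Counts of members and of list genes past the threshold are therefore also given without it, when 60.0% of all genes passed. This library was singled out in these same data. All counts and p-values given without it therefore rest on a spread that the choice can narrow. The methods call the 3 samples of a group independent without saying what was separate, so the p-values measure only the spread between these samples, which may be technical.

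The PC-3 identity of the RNA was checked against fixed markers. Epithelial markers and VIM summed to 2040 to 2420 CPM in shCdGAP and 1290 to 1340 CPM in shCon libraries. Of the 5 genes 3 rose (KRT19, EPCAM and VIM), while KRT8 and KRT18 did not pass. VIM alone averaged 1149 CPM in shCdGAP and 628 CPM in shCon libraries. Of the luminal prostate markers, KLK3, KLK2 and TMPRSS2 held at most 3 reads in every library. Of the blood cell markers, PTPRC and CD3E were at 3 reads or fewer in every library and CD14 held 4 to 11 reads in each. Endothelial markers summed to 2.44 to 6.06 CPM in shCdGAP and 5.69 to 5.84 CPM in shCon libraries. Nearly all of this sum was PECAM1, and VWF was at 3 reads or fewer. Neuroendocrine markers summed to 1.03 to 1.46 CPM in shCdGAP and 0.691 to 0.999 CPM in shCon libraries, with CHGA at 3 reads or fewer, and SYP did not pass the threshold although its groups did not overlap (log2 fold change 0.66, SE 0.22, adjusted p = 0.0274). Fibroblast markers did not overlap between the groups either, summing to 57.4 to 61.5 CPM in shCdGAP and 17.6 to 19.2 CPM in shCon libraries, and COL1A1 and LUM rose. The part of these differences in the values below was not tested. In bulk RNA of a cultured line, a change in how many cells express a gene and a change in its RNA per cell cannot be told apart.

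Of the 9 network members tested, 2 fell (MXD1 and MXD4), none rose and 7 did not pass the threshold. This is 22.2% of the members, against 46.2% of all genes. Over all 6 libraries no member changed more than 2-fold, as 12.8% of all genes did. The median log2 fold change of the members was -0.08, beside 0.01 over all genes. It depended on single libraries, being -0.016 without shCdGAP replicate 1, -0.157 without shCdGAP replicate 2 and -0.034 without shCdGAP replicate 3. Over all libraries the median absolute log2 fold change of the members was 0.10, beside 0.31. The CPM values of the groups did not overlap for 5 members (MAX, MXD1, MXD3, MXD4 and MLX), whereas the same separation held for 67.1% of all genes. Without shCdGAP replicate 2, 7 of the 9 members passed (MXD3 higher; MYC, MYCL, MAX, MXD1, MXD4 and MXI1 lower), and 60.0% of all genes did. MYCL then also passed 2-fold.

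**Figure D1:**
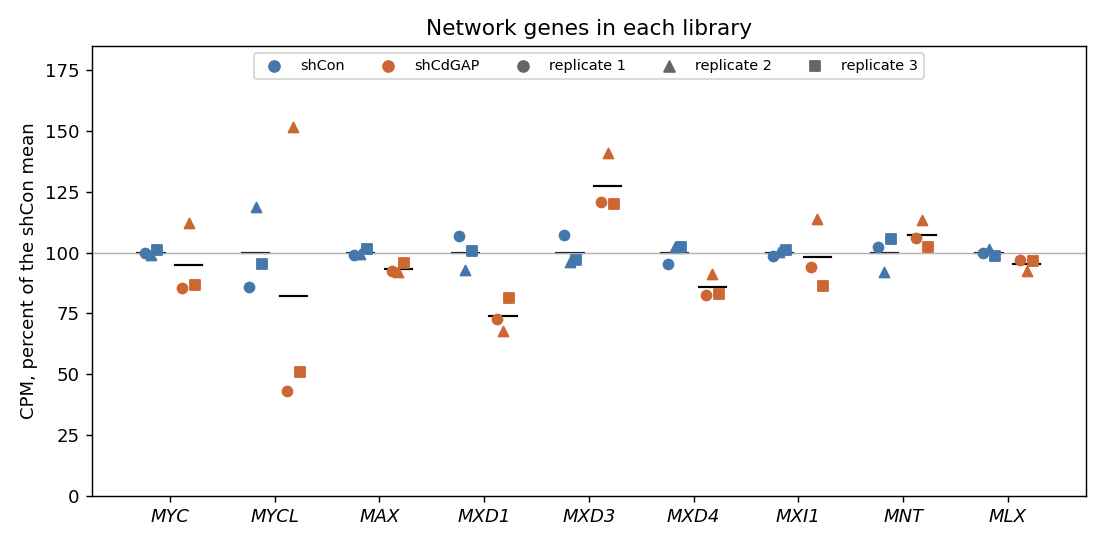
Level of each tested network member in each library as a percentage of the shCon mean of that gene (vertical axis), with a point for each of the 3 shCdGAP (orange) and 3 shCon (blue) libraries and a black line at the group mean. MXD1 and MXD4 sit lower in all 3 shCdGAP libraries, and for MYC, MYCL, MXD3, MXI1 and MNT the shCdGAP replicate 2 library is the highest of the 6.

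MYC was by far the most abundant member in both groups. The gene (ENSG00000136997, chromosome 8 from 127735434 to 127741434, 3001 bases of exon) held 57441 to 94206 reads per library and ranked 28 of 16439 genes by RPKM averaged over the libraries. Its level was 1648, 2163 and 1671 CPM in shCdGAP replicates 1, 2 and 3 and 1924, 1904 and 1950 CPM in the corresponding shCon replicates. Replicates 1 and 3 of the CdGAP-depleted cells thus lay under all 3 shCon libraries, at 85.6% and 86.8% of their mean, and replicate 2 lay above all of them, at 112%. Means were 1827 ± 291 CPM (SD, n = 3) and 1926 ± 23.1 CPM (SD, n = 3). The log2 fold change of MYC was -0.08 (SE 0.101, adjusted p = 0.548), so no difference between the groups was shown beyond the spread within shCdGAP. Without the second shCdGAP library, which leaves replicates 1 and 3 in that group, it was -0.22 (SE 0.0217, adjusted p = 5.40e-12). That library was singled out in these same data, so this p-value rests on a spread narrowed by the choice. MYC passed in only 1 of 13 alternative settings. With a library left out its log2 fold change ranged from -0.22 to -0.016, with an adjusted p of up to 0.907 in edgeR.

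The paralogs of MYC were scarcely present. MYCN (ENSG00000134323, chromosome 2 from 15940564 to 15947007), the family member of neural tissue and of neuroendocrine prostate tumours, had 0 reads in all 6 libraries, which allows a level of up to 0.0908 CPM in the shallowest of them. MYCL (ENSG00000116990, chromosome 1 from 39895426 to 39902256) held 35, 132 and 35 reads in shCdGAP replicates 1 to 3 and 72, 100 and 63 reads in the shCon replicates. In CPM these were 0.863, 3.03 and 1.02 against 1.72, 2.37 and 1.91. Here too the shCdGAP replicate 2 library was the highest of all and its group mates the lowest. The log2 fold change of MYCL was -0.26 (SE 0.464, adjusted p = 0.653), and -1.11 (SE 0.211, adjusted p = 1.47e-05) without that library. MYC made up 99.9% or more of the summed RPKM of the MYC family in every library.

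RAC3, HOXB13 and SNX25 were the 3 genes outside the network whose pattern over the 6 libraries was nearest to that of MYC. Likeness was the root mean square difference of centred log2 CPM, over 10251 genes whose average log2 CPM was 3 or more, and the median of these genes differed from MYC by 0.20. RAC3, a Rac GTPase gene on chromosome 17 from 82031624 to 82034204, differed by 0.016, with 19.1, 24.6 and 19 CPM in shCdGAP and 22.1, 22.1 and 22.0 CPM in shCon libraries. HOXB13, a homeobox gene of the prostate lineage on chromosome 17 from 48724763 to 48729178, differed by 0.0229. It was at 267, 339 and 265 CPM against 311, 304 and 303 CPM. SNX25, a sorting nexin gene on chromosome 4 from 185204237 to 185370185, differed by 0.0248, with 16.4, 21.2 and 16.7 CPM against 18.5, 18.6 and 18.6 CPM. All 3 shared with MYC the high shCdGAP replicate 2 library, which follows from their choice by likeness over the same 6 libraries. The values in the next sentence also follow from that choice and are not independent support. Like MYC, none of them passed the threshold over all libraries, and without shCdGAP replicate 2 the log2 fold changes were -0.22 for RAC3 (adjusted p = 0.000428), -0.21 for HOXB13 (adjusted p = 1.99e-09) and -0.17 for SNX25 (adjusted p = 0.00769).

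MAX, the obligate partner of MYC and a partner of the MXD proteins (ENSG00000125952, chromosome 14 from 65006174 to 65102695), varied little. Its values were 79.3, 79.2 and 82.2 CPM in shCdGAP and 85.1, 85.7 and 87.2 CPM in shCon cells. The groups did not overlap, but the difference was small, with a log2 fold change of -0.10 (SE 0.0357, adjusted p = 0.0377), and it did not reach the threshold. It was of the same size without shCdGAP replicate 2 and then passed (adjusted p = 0.00543).

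Among the MAX-binding antagonists of MYC, MXD1 showed the clearest difference. MXD1 (ENSG00000059728, chromosome 2 from 69897688 to 69942945), which is induced as cells leave the cycle and differentiate, held 465, 467 and 440 reads in the shCdGAP and 706, 617 and 525 reads in the shCon libraries. These reads gave 11.5, 10.7 and 12.8 CPM against 16.8, 14.6 and 15.9 CPM. All 3 CdGAP-depleted libraries were under all 3 control libraries. MXD1 fell to 73.8% of the shCon level (log2 fold change -0.44, SE 0.0861, adjusted p = 0.00207). The call was lost when shCon replicate 1 (adjusted p = 0.0121) or shCon replicate 3 (adjusted p = 0.0102) was left out, and the log2 fold change stayed between -0.52 and -0.39 under 13 alternative settings.

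MXD4 (ENSG00000123933, chromosome 4 from 2247432 to 2262294), an MXD family member whose promoter stretch is shown above, was at 74.8, 82.6 and 75.3 CPM in shCdGAP and at 86.5, 92.7 and 92.6 CPM in shCon cells. The groups did not overlap, though the highest shCdGAP library came near the lowest shCon library. MXD4 fell to 85.7% of the shCon level (log2 fold change -0.22, SE 0.0507, adjusted p = 0.00462). This call was lost without shCdGAP replicate 1 (adjusted p = 0.0212), shCdGAP replicate 3 (0.0168), shCon replicate 2 (0.0199) or shCon replicate 3 (0.0191). The 51 other tested genes within 2 Mb of MXD4 had a median log2 fold change of -0.38, lower than that of MXD4 itself, and the part of this neighbourhood in its fall was not tested. Around MXD1, by contrast, the median of 37 neighbours was -0.04.

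MXD3 (ENSG00000213347, chromosome 5 from 177301461 to 177312757), the MXD gene that is expressed in proliferating cells, lay on the other side. It was at 9.10, 10.6 and 9.02 CPM in the shCdGAP and 8.06, 7.23 and 7.29 CPM in the shCon libraries, and the groups did not overlap. Its log2 fold change was 0.35 (SE 0.0946, adjusted p = 0.0113), which just missed the threshold. The value was 0.26 without shCdGAP replicate 2 (adjusted p = 0.00705). Its 46 tested neighbours had a median of 0.24, whose part was not tested, and 18.0% of its exon bases are shared with RAB24 on the same strand, where reads were not counted.

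MXI1 and MNT did not pass the threshold. MXI1 (ENSG00000119950, chromosome 10 from 110207605 to 110287365), an MXD family gene known to be induced by hypoxia, was at 86.6, 104.8 and 79.4 CPM in shCdGAP and 90.8, 92.3 and 93.3 CPM in shCon libraries. The CdGAP-depleted libraries surrounded the control libraries, the second being the highest and the other two the lowest of the 6. The log2 fold change of MXI1 was -0.03 (SE 0.0918, adjusted p = 0.811), and -0.16 (SE 0.0333, adjusted p = 7.06e-05) without the second library. MNT (ENSG00000070444, chromosome 17 from 2384060 to 2401118), the widely expressed MYC antagonist, was at 39.7, 42.5 and 38.3 CPM against 38.3, 34.4 and 39.6 CPM, with overlapping groups. Its log2 fold change was 0.10 (SE 0.0640, adjusted p = 0.201).

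Compared per length, MYC RNA exceeded each of its partners and antagonists by a wide margin. In shCon cells the order was MYC at 642 ± 7.68 RPKM, MXI1 at 20 ± 0.268, MAX at 19.4 ± 0.239, MXD4 at 12.8 ± 0.505, MLX at 11.3 ± 0.155, MNT at 4.29 ± 0.310, MXD1 at 2.49 ± 0.175, MXD3 at 1.46 ± 0.0894 and MYCL at 0.395 ± 0.0663 RPKM (SD, n = 3). No neighbours in this order overlapped between their libraries. In shCdGAP cells MYC stood at 609 ± 96.9 RPKM, and MXI1 (19.6 ± 2.85) overlapped MAX (18.1 ± 0.384), as did MXD4 (11.0 ± 0.616) and MLX (10.8 ± 0.283). MXD3 at 1.86 ± 0.173 RPKM and MXD1 at 1.84 ± 0.166 RPKM overlapped as well, where MXD1 had been above MXD3 in shCon cells. Exon bases shared with other genes on the same strand, 18.0% for MXD3 and 3.73% for MXD1, were not counted. The RPKM was not corrected for this and may understate MXD3 relative to MXD1. MNT at 4.60 ± 0.245 and MYCL at 0.323 ± 0.239 RPKM kept their places.

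**Figure D2:**
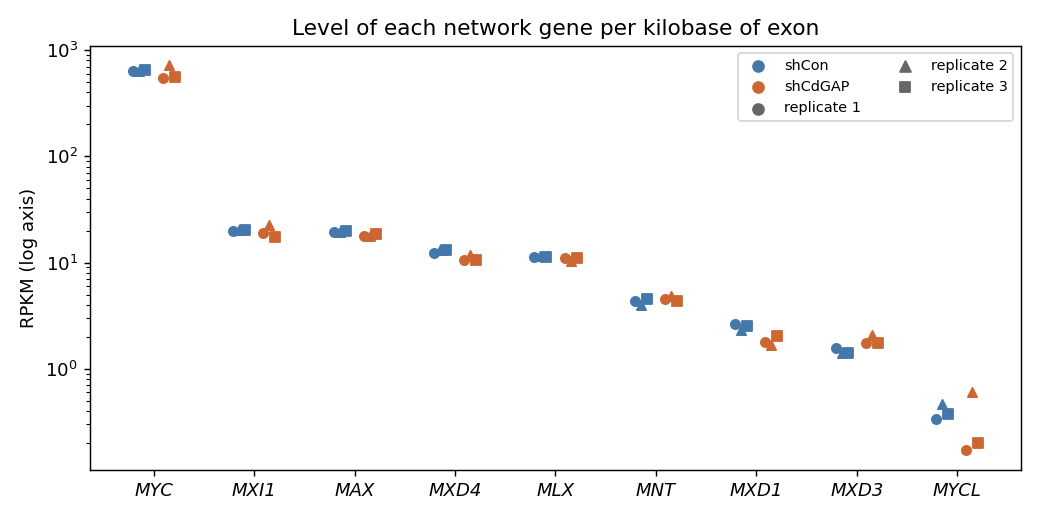
Level per length of the 9 detected members in RPKM on a log axis, with a point for each of the 3 shCon (blue) and 3 shCdGAP (orange) libraries. MYC averages 642 RPKM in shCon and 609 RPKM in shCdGAP cells and every other member is at 22.8 RPKM or lower. The MXD1 and MXD3 levels overlap in shCdGAP cells, with no correction for exon bases that were not counted.

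The summed level of the MYC family relative to that of its antagonists overlapped between the groups. In RPKM the ratio of the MYC family to MXD1, MXD3, MXD4, MXI1 and MNT together was 14.6, 16.8 and 15.5 with CdGAP depleted and 15.8, 15.6 and 15.6 in the controls. The means were 15.6 ± 1.06 and 15.6 ± 0.147 (SD, n = 3). The ratio of the MYC family to MAX was 30.7, 40.3 and 30.02 against 33.4, 32.8 and 33.0, again with the second CdGAP-depleted library above and the others below the control libraries. Within the antagonists the shares of 4 genes lay apart between the groups. MXD4 contributed 28.3 ± 1.22% of their RPKM in shCdGAP and 31.3 ± 0.991% in shCon cells, and MXD1 contributed 4.78 ± 0.837% against 6.05 ± 0.451%. MNT contributed 11.9 ± 0.489% against 10.4 ± 0.677%, and MXD3 4.78 ± 0.0725% against 3.56 ± 0.257%. Libraries of the groups did not overlap for these 4 shares, while for MXI1, the largest contributor at 50.2 ± 2.52% and 48.7 ± 0.362%, they did. No test was run on these shares, which are parts of a common sum and so not independent. The CPM of MNT itself overlapped between the groups, and the CPM of single genes separated for 67.1% of all tested genes.

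The second shCdGAP library decided several of the member values. It was the highest of the 6 libraries for 5 of the 9 members (MYC, MYCL, MXD3, MXI1 and MNT) and the lowest for 3 (MAX, MXD1 and MLX). Leaving out any of the other 5 libraries gave 0 or 1 changed member.

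**Figure D3:**
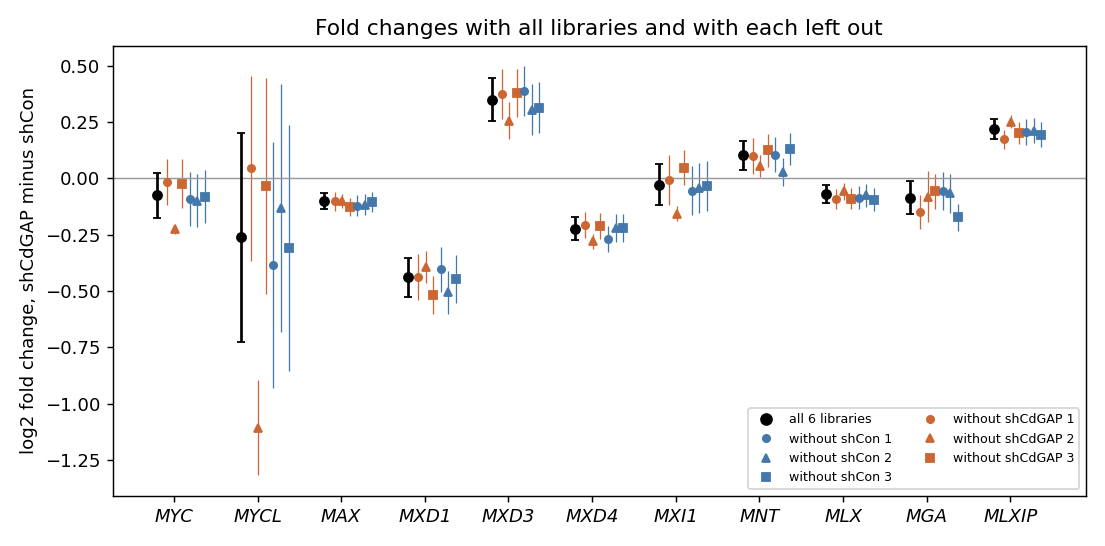
Log2 fold change of each tested member and of MGA and MLXIP over all 6 libraries (black) and with each library left out in turn (colours), with SE bars (vertical axis, log2 scale). MYC moves from -0.08 to -0.22 and MYCL from -0.26 to -1.11 without shCdGAP replicate 2, whereas MXD1 stays between -0.52 and -0.39.

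On the MLX side of the network, MLX itself (ENSG00000108788, chromosome 17 from 42567068 to 42573239) was at 46.6, 44.5 and 46.6 CPM in the shCdGAP and 48.2, 48.8 and 47.5 CPM in the shCon libraries. The groups did not overlap, yet the log2 fold change of -0.07 (SE 0.0405, adjusted p = 0.166) did not pass. MLXIP (MondoA, chromosome 12 from 122078722 to 122147347), the glucose-sensing partner of MLX, was at 126, 114 and 122 CPM in shCdGAP and 104, 105 and 102 CPM in shCon libraries. It rose by 0.22 on the log2 scale (SE 0.0449, adjusted p = 0.00269), and this call was lost in 4 of the 6 fits with a library left out. MLXIPL (ChREBP, chromosome 7 from 73593194 to 73624543), the liver and fat counterpart of MondoA, held only 21, 15 and 21 reads against 12, 5 and 13, with a log2 fold change of 0.90 (SE 0.410, adjusted p = 0.0870). MGA, a large MAX partner that joins a Polycomb-type repressor complex (chromosome 15 from 41621224 to 41773081), was at 62.0 ± 4.03 and 65.8 ± 6.11 CPM (SD, n = 3; log2 fold change -0.09, SE 0.0736, adjusted p = 0.348).

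Of the known targets of MLX and the Mondo factors (MLXIP and MLXIPL), 1 of 7 tested genes (of 9 listed) rose and none fell. This is 14.3% changed beside 46.2% of all genes. The median log2 fold change was 0.03, and it turned to -0.009 without shCdGAP replicate 1 and to -0.002 without shCon replicate 3. ARRDC4, an arrestin-domain gene that restrains glucose uptake, was at 10.7, 10.8 and 10.9 CPM in shCdGAP and 7.20, 6.68 and 6.96 CPM in shCon libraries, and rose by 0.64 on the log2 scale (SE 0.0730, adjusted p = 7.94e-05). TXNIP, its close relative and the classical MondoA target, was at 149, 227 and 140 CPM against 116, 122 and 125 CPM, a log2 fold change of 0.51 (SE 0.194, adjusted p = 0.0659). All 3 CdGAP-depleted libraries were above the control libraries for both genes. Without the second shCdGAP library TXNIP stood at 0.25 (adjusted p = 1.18e-08). The lipid synthesis genes FASN (0.12), SCD (-0.05), ACACA (0.03) and ELOVL6 (0.02) and the Krüppel-like factor gene KLF10 (-0.21) did not pass, with adjusted p of 0.0271 to 0.697 (all log2 fold changes). PKLR and GPD1 were too low to test. Without the second library 5 of the 7 genes passed, 3 of them higher, beside 60.0% of all genes.

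The SIN3 corepressor complex, which MXD proteins and MNT bring to DNA, was expressed throughout, and of its 17 listed genes 9 fell, 1 rose and 7 did not pass (median log2 fold change -0.17). This is 58.8% changed, beside 46.2% of all genes (22.0% lower). The scaffold SIN3B was the gene that rose, from 96.7 ± 4.01 to 137.6 ± 4.89 CPM (SD, n = 3; log2 fold change 0.51, SE 0.0443, adjusted p = 1.50e-05). ING1, a reader of methylated histone H3, fell most, with 6.12, 6.75 and 5.56 CPM in shCdGAP and 18.0, 18.4 and 17.7 CPM in shCon libraries (log2 fold change -1.55, SE 0.0818, adjusted p = 7.08e-07). ING1 lies on chromosome 13, where the median of 271 tested genes was -0.99, and its 15 neighbours within 2 Mb had a median of -1.49. The part of that region in its fall was not tested. BRMS1L, a SIN3 complex subunit, fell by 0.36 (SE 0.0541, adjusted p = 0.000447) on the log2 scale. Of the 15 list genes off chromosomes 9 and 13, 8 changed, and without shCdGAP replicate 2 the count over the list was 13 of 17 (3 higher, 10 lower), beside 60.0% of all genes.

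MYC coactivators and partners changed about as often as other genes, 47.1% of them against 46.2% of all genes. Of 17 tested genes of 18 listed, 6 fell, 2 rose and 9 did not pass, with a median log2 fold change of -0.14. WDR5, which anchors MYC to chromatin, fell from 181.4 ± 0.422 to 104.8 ± 4.51 CPM (log2 fold change -0.79, SE 0.0395, adjusted p = 5.06e-07). CDK9, the kinase that releases paused polymerase, fell from 87.9 ± 1.55 to 59.2 ± 2.15 CPM (log2 fold change -0.57, SE 0.0406, adjusted p = 4.48e-06). Both lie on chromosome 9, whose 662 tested genes had a median of -0.42, and the neighbours of WDR5 (-0.62, 38 genes) and of CDK9 (-0.58, 77 genes) were about as low, and the part of this region in both values was not tested. EP400, the ATPase of the TIP60 complex, rose by 0.41 (SE 0.0533, adjusted p = 0.000189) and the elongation factor gene SUPT5H by 0.19 (SE 0.0473, adjusted p = 0.00836) on the log2 scale. KAT2A held no read in any library. With shCdGAP replicate 2 left out, 12 of the 17 genes passed, 4 of them higher, beside 60.0% of all genes.

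Of 21 genes that set the stability of MYC protein, 4 rose, 7 fell and 10 did not pass (median log2 fold change -0.00, and -0.051 to -0.023 with a library left out). This is 52.4% changed, near the 46.2% of all genes (24.1% higher, 22.0% lower). SKP2, an F-box protein that marks MYC for degradation and also aids its activity, was at 63.8, 66.7 and 61.6 CPM in shCdGAP and 122, 122 and 126 CPM in shCon libraries, and fell by 0.94 (SE 0.0415, adjusted p = 2.52e-07) on the log2 scale. FBXO32 (atrogin-1), another F-box gene of the same role, rose from 8.71 ± 0.639 to 45.7 ± 5.21 CPM (SD, n = 3; log2 fold change 2.39, SE 0.0939, adjusted p = 1.56e-07). It was the only gene of this list past 2-fold. The genes of 2 inhibitors of the phosphatase PP2A, which destabilises MYC, moved apart. SET fell by 0.82 (SE 0.0317, adjusted p = 1.26e-07) and CIP2A rose by 0.29 (SE 0.0467, adjusted p = 0.000685). SET is on chromosome 9, where its 86 neighbours had a median of -0.55, and its part was not tested. The count was 15 of 21 without shCdGAP replicate 2 (6 higher, 9 lower), beside 60.0% of all genes. Protein levels were not measured in these data.

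Genes that MYC is known to activate were lower more often than higher. Of 80 tested genes of 81 in 5 lists, 30 (37.5%) fell, 8 (10%) rose and 42 did not pass, beside 22.0% lower and 24.1% higher over all genes. Their median log2 fold change was -0.12, and 55 of the 80 were below 0. Without shCdGAP replicate 2, 41 (51.2%) were lower and 18 (22.5%) higher, where 30% of all genes were lower and 30% higher. The lists had been chosen with earlier results of these data known, and no test of the lists as sets was run.

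**Figure D4:**
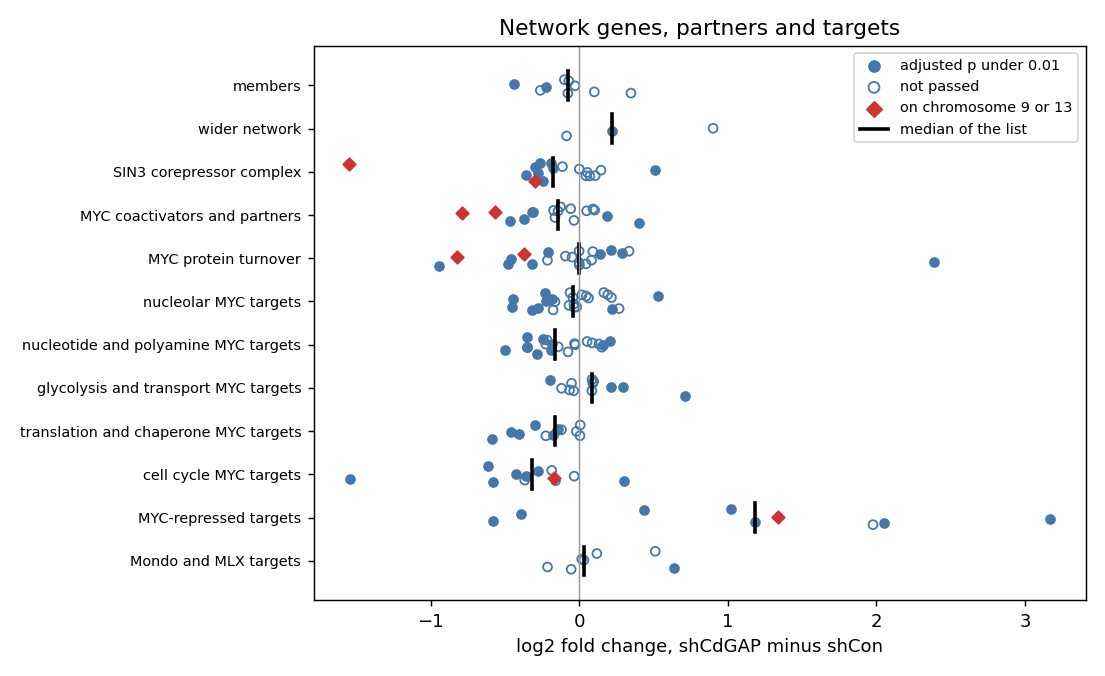
Log2 fold change (shCdGAP over shCon) of each tested gene of the network, cofactor and target lists, with filled points for an adjusted p under 0.01, open points for genes that did not pass, red diamonds for genes on chromosome 9 or 13 (all with an adjusted p under 0.01) and a bar at each list's median. The medians lie between -0.32 for cell cycle targets and 1.18 for genes known to be repressed by MYC, and that of the network members is -0.08.

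Cell cycle targets had the lowest median of the lists, with 7 of 12 tested genes (of 13 listed) lower and 1 higher. The median log2 fold change was -0.32, and 66.7% changed beside 46.2% of all genes (22.0% lower). TERT, the catalytic subunit of telomerase, was at 0.740, 0.895 and 0.960 CPM in shCdGAP and 2.88, 2.42 and 2.21 CPM in shCon libraries (log2 fold change -1.54, SE 0.176, adjusted p = 8.17e-05). MCM7, a subunit of the replicative helicase, fell from 394.5 ± 6.65 to 257.4 ± 18.5 CPM (log2 fold change -0.62, SE 0.0520, adjusted p = 1.24e-05). Both promoters hold CACGTG, which was found for 3 of the 11 genes of this list with a listed promoter. In other lists it was found for genes that rose (such as GNL3, SLC1A5 and ARRDC4) and that fell (such as FBL and SLC7A5). ID2, an inhibitor of differentiation, rose by 0.30 (SE 0.0424, adjusted p = 0.000303) on the log2 scale. Translation and chaperone targets fell in 7 of 12 cases (58.3% changed) and rose in none (median -0.16), led by the prohibitin gene PHB2 (log2 fold change -0.59, SE 0.0476, adjusted p = 9.73e-06) and by TFAM, the mitochondrial transcription factor (-0.46, SE 0.0445, adjusted p = 2.98e-05). EIF4A1 of this list shares 48.6% of its exon bases with other genes on its strand and is undercounted. Without shCdGAP replicate 2 the counts were 9 of 12 (8 lower) for cell cycle and 9 of 12 (9 lower) for translation and chaperone targets, beside 60.0% of all genes.

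Nucleotide and polyamine targets fell in 8 of 20 cases and rose in 2 (median -0.16), 50% changed beside 46.2% of all genes. SHMT2, the mitochondrial serine hydroxymethyltransferase, fell from 257.6 ± 0.109 to 182.6 ± 5.60 CPM (log2 fold change -0.50, SE 0.0344, adjusted p = 3.83e-06), and UMPS of pyrimidine synthesis fell by 0.35 (SE 0.0481, adjusted p = 0.000237). AMD1 of polyamine synthesis rose by 0.20 (SE 0.0414, adjusted p = 0.00245) and IMPDH2 of guanine nucleotide synthesis by 0.16 (SE 0.0310, adjusted p = 0.00182). Nucleolar targets fell in 7 of 24 cases and rose in 2, 37.5% changed. Their median was -0.04 and ranged from -0.076 without shCdGAP replicate 1 to -0.018 without shCdGAP replicate 2. NOLC1 (-0.45, SE 0.0386, adjusted p = 1.31e-05) and FBL, the fibrillarin gene (-0.44, SE 0.0411, adjusted p = 2.20e-05), were lower, whereas BOP1, a ribosome biogenesis factor, rose from 1411 ± 26.7 to 2038 ± 132.9 CPM (log2 fold change 0.53, SE 0.0492, adjusted p = 2.21e-05) and the nucleostemin gene GNL3 rose by 0.22 (SE 0.0368, adjusted p = 0.000781). Without shCdGAP replicate 2, 17 of 20 nucleotide and polyamine targets (11 lower) and 14 of 24 nucleolar targets (8 lower) passed, beside 60.0% of all genes.

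Of 12 glycolysis and transport targets, 3 rose and 1 fell, which is 33.3% changed beside 46.2% of all genes. Their median log2 fold change was 0.09, and it turned to -0.028 without shCdGAP replicate 2 and was 0.036 without shCon replicate 1. SLC2A1, which encodes the glucose transporter GLUT1, was at 135.7, 171.6 and 122.3 CPM in shCdGAP and 81.2, 93.4 and 87.9 CPM in shCon libraries (log2 fold change 0.71, SE 0.126, adjusted p = 0.00253). The amino acid transporter genes SLC1A5 and SLC7A5 moved in opposite directions, SLC1A5 rising by 0.29 (SE 0.0427, adjusted p = 0.000364) and SLC7A5 falling by 0.20 (SE 0.0484, adjusted p = 0.00725) on the log2 scale. The list had 5 higher and 5 lower genes without shCdGAP replicate 2, beside 60.0% of all genes changed.

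Of 9 tested genes (of 11 listed) that MYC is known to repress, 6 rose and 2 fell, beside 24.1% higher and 22.0% lower over all genes. Their median log2 fold change was 1.18, and 5 of them changed more than 2-fold, as 12.8% of all genes did. PDGFRB, a receptor tyrosine kinase of mesenchymal cells, was at 0.740, 1.19 and 1.14 CPM in shCdGAP and 0.0954, 0.166 and 0.0605 CPM in shCon libraries (log2 fold change 3.17, SE 0.369, adjusted p = 9.02e-05). Its shCon values were near the floor of 3 reads. CDKN1C, which encodes the CDK inhibitor p57, was at 1.14, 2.73 and 1.43 CPM against 0.405, 0.450 and 0.424 CPM (log2 fold change 2.05, SE 0.371, adjusted p = 0.00139). CDKN1B, which encodes p27, went the other way, from 39.8 ± 1.18 to 26.7 ± 2.64 CPM (log2 fold change -0.58, SE 0.0703, adjusted p = 0.000118), as did the matrix gene THBS1 (-0.39, SE 0.0981, adjusted p = 0.00814). NDRG2 held no read in any library. GAS1 was too low to test, with 1, 0 and 0 reads in shCdGAP and 9, 6 and 3 reads in shCon libraries. All 9 tested genes passed without shCdGAP replicate 2, 7 of them higher, beside 60.0% of all genes.

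The presence of CACGTG in a promoter went with no clear direction over the genome. Of the tested genes, 11492 (69.9%) had a listed promoter, and 1403 of these (12.2%) held CACGTG. Of the genes with the motif 23.9% rose and 26.9% fell (median log2 fold change -0.01), and of the 10089 without it 25.6% rose and 24.8% fell (median 0.00). Among the target lists the motif was found for 7 of 19 nucleolar, 7 of 17 nucleotide and polyamine, 4 of 10 glycolysis and transport, 4 of 12 translation and chaperone and 3 of 11 cell cycle genes with a listed promoter, and for 0 of 7 genes known to be repressed. Of the members that hold it, MXD4 fell, and MNT and MLX did not pass the threshold.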

How the data were processed

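RNA of shCdGAP and shCon PC-3 cells (n = 3 each) was analysed from raw read counts per gene that the authors deposited, 1 table per sample. According to the methods and the submitters' processing notes, reads were checked with FastQC 0.11.5, aligned to GRCh38 with STAR 2.5.1b and counted with featureCounts 1.4.6, while the header of each table records version 1.6.0, paired reads, the reverse-strand setting and Ensembl release 77. Reads in overlapping genes of 1 strand were not counted under these settings, and the methods name a single-read kit. Counts were tested in R 4.3.3 with edgeR 4.0.16 by its robust quasi-likelihood test after TMM scaling (filterByExpr, group as the only term, Benjamini-Hochberg adjustment over 16439 genes, adjusted p under 0.01) with limma 3.58.1 loaded. The SE was obtained from the fold change (log2) and the F statistic, as its size over the root of F.

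Genes named are all members and wider network genes, ARHGAP31, every gene of lists of 10 or fewer genes, the 2 highest and 2 lowest changed genes of longer lists, and the 3 genes nearest to MYC in pattern, for which 0.05 CPM was added before taking logs. The members and lists were chosen with earlier results of these data known. Alternatives were DESeq2 1.42.0, other scalings and filters, genes of chromosomes 9 and 13 left out, a replicate block, a threshold of 0.05, and each library left out in turn. Every pair of libraries of a group differed by more than sampling noise. The edgeR step was tested on simulated counts of 16219 genes for shCdGAP against shCon. It called 46.2% of 65 changes of 0.5 on the log2 scale, 78.8% of 66 changes of 1 and 95.3% of 64 changes of 2. It also called 7 of 16024 unchanged genes. Far fewer genes were changed there than passed in the data, which alters the adjusted p, so these rates do not carry over to the members. Promoter sequences are from RefSeq (GRCh38.p14), and gene positions are those of the deposited count tables. Some cell type markers are not reported here.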

Additional observations from a re-analysis of the deposited data

How the results depend on the processing

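The number of changed network members was 2 or 3 under 7 alternative fits (DESeq2, upper-quartile or library-size scaling, either filter, chromosomes 9 and 13 left out, replicate block) and 4 at an adjusted p under 0.05. It lay between 0 and 7 with a library left out, the 7 coming without shCdGAP replicate 2 and the 0 without shCon replicate 3. Same-numbered libraries of the groups deviated together only weakly (correlations 0.0306, 0.0499 and 0.0469), although each correlated best with its own number. The replicate block gave 2 changed members and 7229 changed genes in place of 7587. With a library left out the counts were 0 to 1 for the wider network, 7 to 15 for MYC protein turnover, 5 to 14 for nucleolar, 7 to 17 for nucleotide and polyamine, 2 to 10 for glycolysis and transport, 4 to 9 for translation and chaperone, and 1 to 5 for Mondo and MLX targets. The higher ends came without shCdGAP replicate 2, except for the wider network. The lower ends came without shCon replicate 1 for nucleolar and glycolysis, without shCon replicate 1 or 2 for translation, and without shCon replicate 3 for turnover. The wider network lost its gene without shCdGAP replicate 1 or any shCon replicate. Leaving out chromosomes 9 and 13, which also removes WDR5 and CDK9, gave 5 changed coactivators in place of 8. Without a filter on low counts, 14 nucleolar targets passed, and 2 Mondo and MLX targets did so without the filter and with DESeq2. The cause was not tested. Of 696 fits over 54 genes, 635 kept direction and side of the threshold, 36 lost and 16 gained a call, and 9 changed sign, none of them called. With a library left out MYCL ranged from -1.11 to 0.0443, MXI1 from -0.158 to 0.0464, ACACA from -0.0330 to 0.0538, ELOVL6 from -0.0093 to 0.0199 and SNX25 from -0.175 to 0.0255 on the log2 scale, the sign changing without shCdGAP replicate 1 (all but MXI1), shCdGAP replicate 3 (MXI1 and SNX25) or shCon replicate 3 (ACACA and ELOVL6). ELOVL6 was at -0.0024 without chromosomes 9 and 13.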
